A study of Mus musculus with 18 samples.

Results

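The MHC class I presentation genes described here are 10 genes, chosen by symbol: the heavy chains H2-K1 and H2-D1, the light chain B2m, the peptide transporter genes Tap1 and Tap2, the loading factor Tapbp, the transactivator Nlrc5, and the immunoproteasome subunits Psmb8, Psmb9 and Psmb10. All 10 were found among the 15402 genes of the table, and all 10 were among the 13190 genes tested. Gene expression had been measured by RNA-seq in 18 libraries of CD4+ T cells from draining lymph nodes, collected 5 days after 3% oxazolone, a hapten that sensitises the skin, was applied to the abdomen. All animals were female and carried the strain label C57/BL6 Foxp3Timer Foxp3-IRES-GFP, so that both reporters were present in every population, including the Timer-negative ones, and every mouse was treated. The Timer protein is made under the control of Foxp3 and turns from blue to red as it matures.

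There were 6 sorted populations with 3 libraries each. Tnaive cells were CD44lo and lacked GFP and Timer, and Teff cells were CD44hi and lacked both. The GFP+ Timer+ cells were divided by Timer colour into Pers1, with intermediate blue and low red fluorescence, Pers2, high in both, PAt, low in blue but high in red, and Arrested, which had lost the blue form and kept some of the red. GEO's labels call them de novo, maturing, mature and decaying Foxp3 expressers, in this order. Pers1 and Pers2 are the persistent Foxp3 expressors. Each replicate was a pool of 3 mice, so the spread between libraries is a spread between pools. Libraries with the same replicate number were taken to come from the same pool in all 6 populations. The comparisons ask how T cells with persistent Foxp3 transcription differ from cells in which it has slowed or stopped, and how both differ from Foxp3-negative cells.

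MHC class I molecules show peptides from inside the cell to CD8+ T cells and to NK cell receptors. The immunoproteasome, in which Psmb8, Psmb9 and Psmb10 take the places of the standard catalytic subunits Psmb5, Psmb6 and Psmb7, cuts proteins into such peptides, and the transporter of Tap1 and Tap2 moves them into the endoplasmic reticulum. There tapasin, encoded by Tapbp, bridges the transporter to a heavy chain paired with beta 2-microglobulin, and the loaded complex goes to the surface. Nlrc5 is a transactivator of class I genes that acts through factors bound at their promoters, and T cells are among the cells known for high Nlrc5 expression. Interferons raise most of these genes in many cell types.

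Values are log2 normalised counts as deposited, and a difference of 1 is a factor of 2. They have the form of a regularised log, which draws genes with few reads together, and as no read counts were used here the depth of the libraries is unknown. The sort was visible in the data: Foxp3 lay between 14.36 and 14.85 in the 12 Timer+ libraries and between 10.38 and 11.38 in the Timer-negative ones, and Cd44 was lowest in Tnaive (9.46 to 9.72). The summed T cell markers lay between 16.8 and 17.3 on the log2 scale in all 18 libraries. Markers of other cells differed between populations. The summed dendritic cell markers were 11.2 to 11.8 in Teff and 6.8 to 7.3 elsewhere, and the macrophage or monocyte markers 10.64 to 10.98 in Teff and 8.27 to 9.44 elsewhere. Summed CD8 T cell markers were 11.51 to 12 in Teff, 10.31 to 10.61 in Tnaive, 9.65 to 10.18 in Pers1 and Pers2, and 10.41 to 10.7 in PAt and Arrested. NK cell markers were 9.13 to 9.43 in Tnaive, 8.97 to 9.05 in Teff and 7.2 to 7.69 in Timer+ cells. The NK cell sum in Tnaive came mainly from Eomes (mean 9.13 there), while Klrb1c, Ncr1 and Klre1 were lowest in Tnaive and highest in Teff. B cell markers were 11.6 to 12.3 in Teff, 9.57 to 9.98 in Tnaive, 10.52 to 10.81 in Pers1 and Pers2, and 11.3 to 11.9 in PAt and Arrested. In bulk libraries, fewer cells of a type and less RNA per cell cannot be told apart.

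The stretches before the starts of H2-K1 and B2m are shown because these genes encode the heavy and the light chain of 1 class I molecule and did not move together. They were read from RefSeq promoters on GRCm38.p6, which matched 8 of the 10 members. Tap2 and Nlrc5 had no entry. Each run has 120 bases, 5′ to 3′ on the gene's strand, and the capitals mark matches, on either strand, to the kappaB consensus, the interferon regulatory factor core AANNGAAA, the cyclic AMP response half-site TGACG and the box CCAAT.
H2-K1, chr17:34000348-34000467, minus strand: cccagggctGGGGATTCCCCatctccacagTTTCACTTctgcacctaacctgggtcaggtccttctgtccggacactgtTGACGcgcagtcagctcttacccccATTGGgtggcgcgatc
B2m, chr2:122147541-122147660, plus strand: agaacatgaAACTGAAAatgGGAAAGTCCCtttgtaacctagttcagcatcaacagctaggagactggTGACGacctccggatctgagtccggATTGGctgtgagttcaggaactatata

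In the H2-K1 run the starts of the motifs were 21 bases apart from the kappaB match to the interferon factor core, 49 from there to TGACG and 25 to CCAAT. B2m had the same 4 motifs with the interferon factor core before the kappaB match, and 25 of its 120 positions equalled those of H2-K1 when the runs were laid side by side. The kappaB capitals of H2-K1 cover 2 overlapping matches, and no match of one motif overlapped another. The promoter entry of H2-D1 held the 4 motifs in the order and spacing of H2-K1, and 120 bases around them equalled the H2-K1 run at 107 positions (89.2%). That stretch is not printed, because GENCODE vM21 starts H2-D1 364 bases before RefSeq does and places all 120 bases in its first exon, whereas both annotations agree on the start of H2-K1 and differ by 1 base for B2m. Within 250 bases before the start, the kappaB consensus was found in 7.01%, AANNGAAA in 21.6%, TGACG in 17.9% and CCAAT in 34.5% of 27025 promoters, and in 3, 3, 5 and 6 of the 8 matched members. These are matches of letters, not binding sites. Tap1 and Psmb9 start head to head, with RefSeq starts 226 bases apart.

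In GENCODE vM21 (GRCm38), 7 of the members lie in the H2 region of chromosome 17: Tapbp (chr17:33915899-33929292), H2-K1 (chr17:33996017-34000347), Psmb9 (chr17:34181987-34187764), Tap1 (chr17:34187553-34197225), Psmb8 (chr17:34197721-34201454), Tap2 (chr17:34203527-34216321) and H2-D1 (chr17:35262730-35267499). B2m is on chromosome 2 (chr2:122147686-122153083), and Nlrc5 (chr8:94434356-94527272) and Psmb10 (chr8:105935735-105938444) are on chromosome 8. Psmb9 and Tap1 overlap by 212 bases on opposite strands, B2m lies within the opposite-strand span of Patl2, Tapbp overlaps Zbtb22 on its own strand, and Psmb8, Psmb10, Tapbp and Tap2 overlap antisense transcripts. Nlrc5 overlaps the long non-coding RNA gene 9330175E14Rik on the opposite strand by 748 bases, and Mir7072 on its own strand. The libraries were made with a stranded kit, but whether strand was used in counting is not given in the sources used here. Of the 100-base stretches of their transcripts, 0.957% for H2-K1 and 3.59% for H2-D1 also occur in other genes, so that reads of the 2 heavy chains can be split with other class I genes. The table also has a row named H2-L, at 5.23 to 6.13, far below H2-D1.

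The members' mean values, not corrected for gene length, lay above those of at least 83.2% of the tested genes. H2-K1 ranked 6 and B2m 16 of the 13190 tested genes by mean value, and the lowest member, Psmb10, ranked 2217. Per kilobase of exon, B2m was highest (16.5), followed by H2-K1 (15.3) and H2-D1 (13.2), the other 7 lay between 10.2 (Psmb9) and 12.1 (Tapbp), and Nlrc5 was at 11.1. The population means of single members spanned little. The widest span was that of H2-K1, 1.78-fold from Pers1 to Arrested, then Nlrc5, 1.72-fold from Pers1 to PAt, and the narrowest was that of Tap2, 1.18-fold from Tnaive to Arrested.

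**Figure D1:**
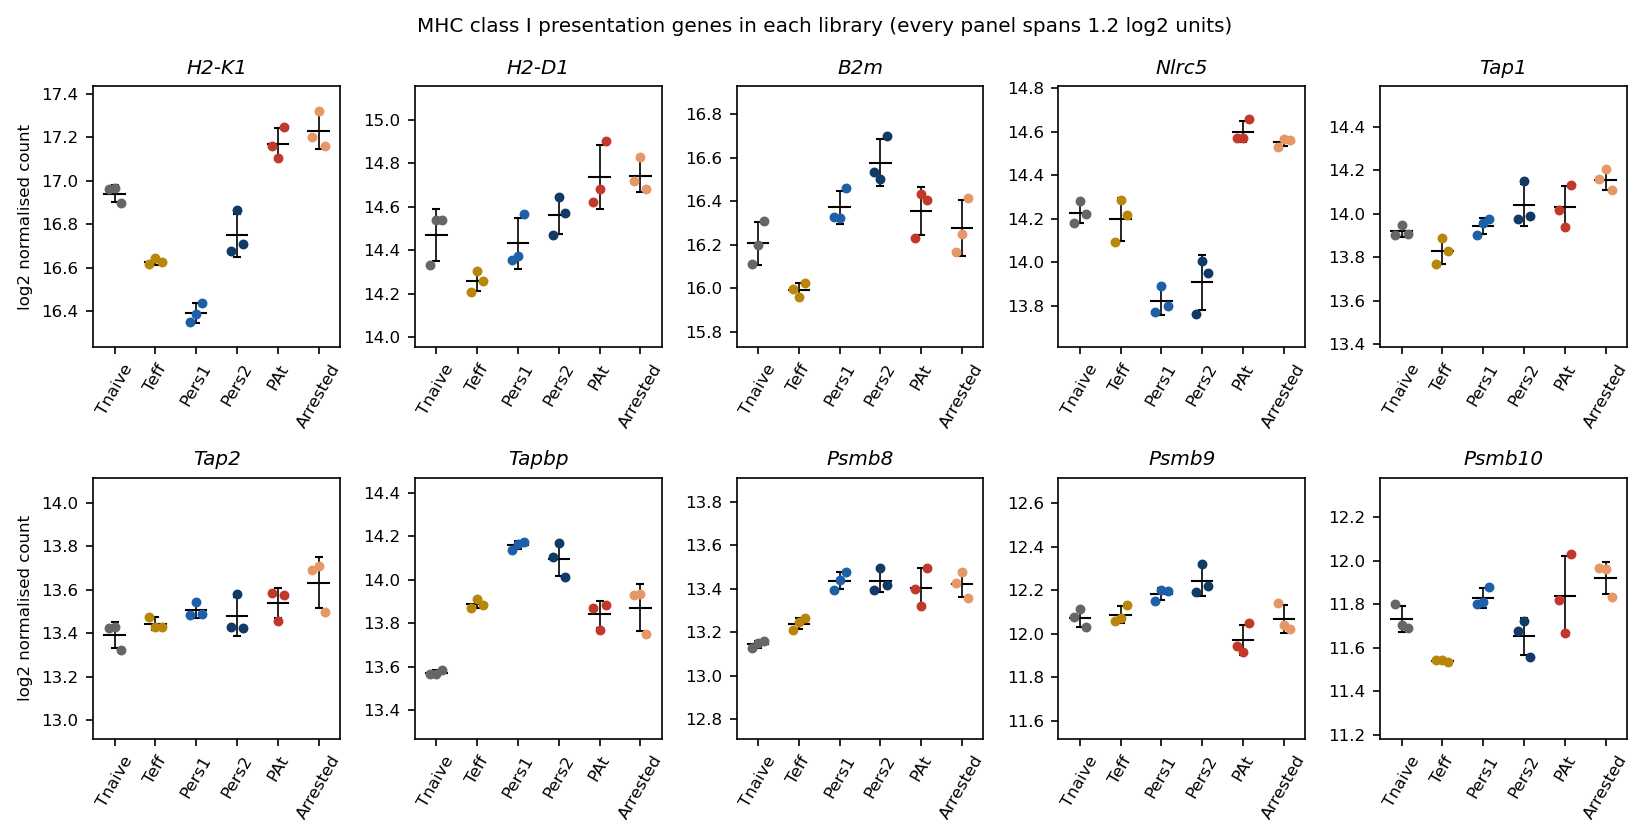
The log2 normalised count of each of the 10 members (y axis, 1.2 log2 units in every panel) in the 6 populations (x axis); points are the 3 libraries, the horizontal bar is the mean and the error bar the SD. Nlrc5 and H2-K1 are low in Pers1 and Pers2 and high in PAt and Arrested, Tapbp and Psmb9 are highest in Pers1 and Pers2, and Tap2 moves least.

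Of the members compared between persistent and PAt or Arrested cells, Nlrc5 and H2-K1 were clearly lower in Pers1 and Pers2, at 0.61 and 0.647 of their level in PAt and Arrested. Tapbp, Psmb9 and B2m were higher there, by 1.21-fold, 1.14-fold and 1.12-fold. H2-D1, Psmb10, Tap1 and Tap2 were lower by less, and Psmb8 did not pass the test. Thus 3 of the 10 members were higher and 6 lower at an adjusted p under 0.05, in limma's fit over all 13190 genes. In the same fit 35.9% of all tested genes were higher and 35.1% lower, the background for these counts. The median log2 fold change was -0.10 over the members and -0.01 over all tested genes.

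Nlrc5, the transactivator, separated these populations most. Its level was 13.77, 13.89 and 13.80 in Pers1 and 13.76, 14.01 and 13.95 in Pers2. In PAt it was 14.57, 14.57 and 14.66, and in Arrested 14.53, 14.57 and 14.56. All 6 persistent libraries lay below all 6 PAt and Arrested libraries, and the log2 fold change was -0.71 (SE 0.042, adjusted p = 3.46e-12). Tnaive (14.18, 14.28 and 14.22) and Teff (14.09, 14.29 and 14.22) lay between, and did not differ from each other beyond their spread. In the order of levels, Pers1 and Pers2 overlapped, as did Teff and Tnaive, while the ranges of Arrested and PAt were just apart (up to 14.566 and from 14.571). Markers of B cells (6 of 6 lower, median log2 fold change -1.04) and of CD8 T cells (2 of 2 lower, median -0.81) were lower in the persistent populations too, and their part in the Nlrc5 difference, and in that of H2-K1, was not tested.

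H2-K1, one of the classical heavy chains, was likewise lowest in Pers1 and highest in PAt and Arrested, but its Teff libraries lay below Pers2. Its level was 16.35, 16.39 and 16.44 in Pers1 and 16.68, 16.86 and 16.71 in Pers2. It was 17.16, 17.10 and 17.25 in PAt and 17.20, 17.32 and 17.16 in Arrested. The persistent libraries all lay below the others (log2 fold change -0.63, SE 0.042, adjusted p = 2.65e-11). Tnaive was at 16.96, 16.97 and 16.90, and Teff at 16.62, 16.64 and 16.62. Neighbours in the order Pers1, Teff, Pers2, Tnaive, PAt were all apart, and only PAt and Arrested overlapped.

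H2-D1, the other heavy chain, moved less. Its Pers1 libraries were at 14.35, 14.37 and 14.57, and the Pers2 libraries at 14.47, 14.65 and 14.57. It was 14.62, 14.68 and 14.90 in PAt, and 14.72, 14.83 and 14.68 in Arrested. Pers2 and PAt overlapped in 1 library each, and the log2 fold change was -0.24 (SE 0.053, adjusted p = 0.00037). The lowest population was Teff, at 14.21, 14.30 and 14.26, apart from all others, while Tnaive (14.33, 14.54 and 14.54) overlapped Pers1 and Pers2. Within a library H2-K1 exceeded H2-D1 by 1.96 on average in Pers1 and 2.19 in Pers2, and by 2.37 to 2.49 in the other 4 populations.

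B2m, the light chain shared by all class I molecules, went the other way. It was 16.33, 16.33 and 16.46 in Pers1 and 16.53, 16.50 and 16.70 in Pers2. In PAt it was 16.23, 16.43 and 16.40, and in Arrested 16.17, 16.25 and 16.42. Pers2 lay above all PAt and Arrested libraries and Pers1 overlapped them, and the log2 fold change was 0.16 (SE 0.052, adjusted p = 0.00968). The call was lost when the libraries were quantile normalised (0.11, adjusted p = 0.105) or centred on their medians (0.09, adjusted p = 0.101). B2m was lowest in Teff (16.00, 15.96 and 16.02), apart from Tnaive (16.11, 16.20 and 16.31). The difference of H2-K1 and B2m within a library was 0.02 ± 0.041 (SD, n = 3) in Pers1 and 0.17 ± 0.18 in Pers2, and 0.64 to 0.95 on average in the other populations, with no overlap between the persistent libraries (-0.02 to 0.36) and the rest (0.59 to 1.07).

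Of the transport and loading genes, Tapbp differed most. Tapbp was 14.14, 14.16 and 14.17 in Pers1 and 14.11, 14.17 and 14.01 in Pers2. It was 13.87, 13.77 and 13.88 in PAt and 13.93, 13.94 and 13.75 in Arrested. All persistent libraries were above all others (log2 fold change 0.27, SE 0.037, adjusted p = 1.23e-06). Tnaive was lowest, with 13.57, 13.57 and 13.59, and Teff (13.87, 13.91 and 13.89) overlapped PAt and Arrested. Tap1 and Tap2, the transporter's subunits, were lower by 0.10 (adjusted p = 0.0245) and 0.09 (adjusted p = 0.0437) on the log2 scale, with overlapping libraries. Tap1 ranged from 13.77 in Teff to 14.20 in Arrested and Tap2 from 13.32 in Tnaive to 13.71 in Arrested. Tap2 populations overlapped at every step of their order. Neither call was stable. Tap1 did not pass without Pers1 replicate 1, Pers2 replicate 1, Pers2 replicate 3, PAt replicate 3 or Arrested replicate 2 (log2 fold change -0.09 to -0.08, adjusted p 0.0612 to 0.0837). Tap2 did not pass without 8 of 12 libraries, namely replicates 1 and 3 of Pers1, Pers2 and PAt, and replicates 1 and 2 of Arrested (-0.09 to -0.08, adjusted p 0.0768 to 0.121).

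The immunoproteasome subunits did not move as a set. Psmb9 was 12.15, 12.20 and 12.20 in Pers1 and 12.19, 12.32 and 12.22 in Pers2. It was 11.94, 11.92 and 12.05 in PAt and 12.14, 12.04 and 12.02 in Arrested. The persistent libraries all lay above these, the nearest pair being 12.15 and 12.14 (log2 fold change 0.19, SE 0.036, adjusted p = 5.46e-05). Psmb10 was lower by 0.14 (SE 0.050, adjusted p = 0.017), with overlap, since its level was 11.56 to 11.88 in the persistent and 11.67 to 12.03 in the PAt and Arrested libraries. Without Pers2 replicate 3 (-0.11, adjusted p = 0.0537) or PAt replicate 3 (-0.09, adjusted p = 0.0655) Psmb10 did not pass, and since Tap1 and Tap2 did not pass either, only 3 members were then lower. Psmb8 stayed between 13.32 and 13.50 in all 12 Timer+ libraries, with a log2 fold change of 0.02 (SE 0.034, adjusted p = 0.535) that turned to -0.01 under quantile normalisation and -0.04 under median centring.

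**Figure D2:**
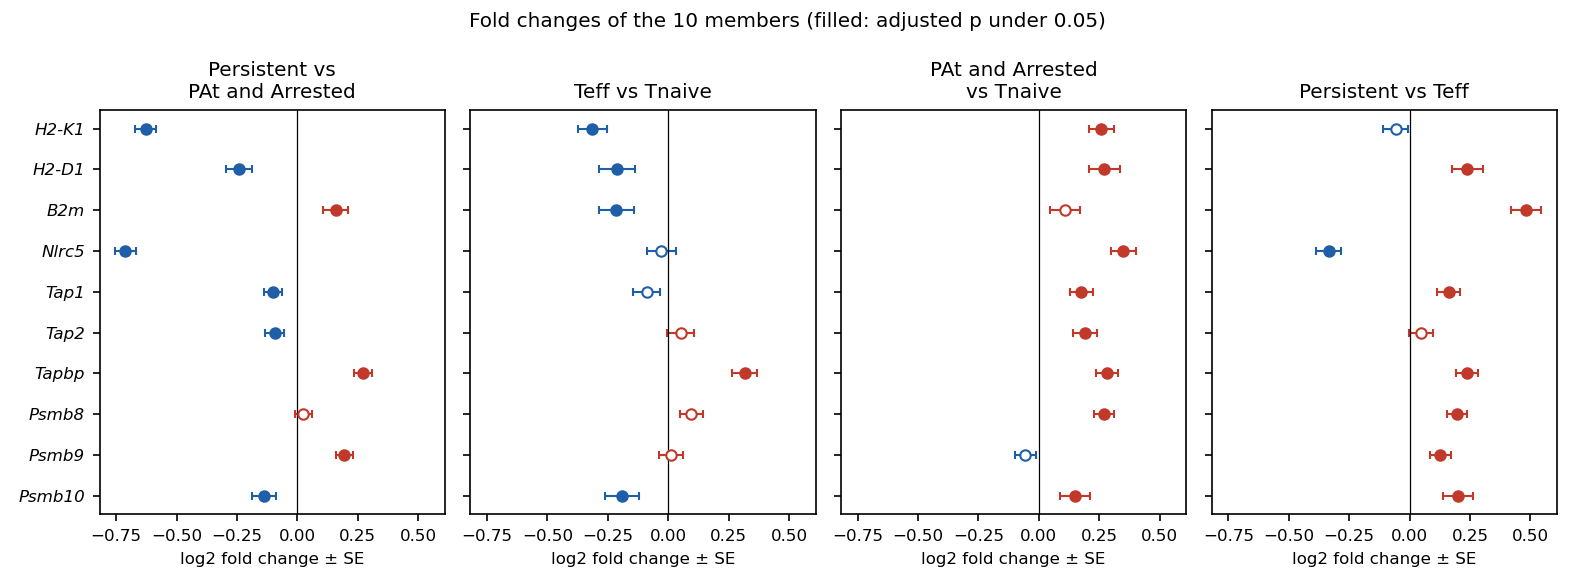
The log2 fold change (x axis) of each member (y axis) in 4 comparisons, with its SE from limma as the error bar; filled points passed an adjusted p under 0.05, red is higher and blue lower. Nlrc5 (-0.71) and H2-K1 (-0.63) stand out in the comparison of persistent with PAt and Arrested cells, and 8 of 10 members are higher in PAt and Arrested than in Tnaive.

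The standard subunits that Psmb8, Psmb9 and Psmb10 replace were all higher in the persistent populations, Psmb7 by 0.75 (adjusted p = 1.1e-13), Psmb5 by 0.67 (adjusted p = 4.45e-10) and Psmb6 by 0.22 (adjusted p = 0.000174) on the log2 scale. Within a library, Psmb8 therefore exceeded Psmb5 by less in the persistent cells: 2.40, 2.47 and 2.49 in Pers1 and 2.59, 2.63 and 2.69 in Pers2. The differences were 2.87 to 3.36 in the other 12 libraries, with no overlap. Psmb10 minus Psmb7 was -0.12, -0.17 and -0.17 in Pers1 and -0.13, -0.07 and -0.19 in Pers2. It was 0.18 to 0.27 in Teff, 0.55 to 0.62 in Tnaive and 0.53 to 0.95 in PAt and Arrested. Teff thus lay between the persistent and the other populations. Psmb9 minus Psmb6 had means from 0.67 in Pers1 to 0.95 in Tnaive. Pers2 (0.75 to 0.97) overlapped every other population. Pers1 (0.59 to 0.79) overlapped PAt and Arrested as well, but lay below Tnaive (0.89 to 1.00) and Teff (0.84 to 1.01). Tnaive also lay above PAt and Arrested, and Teff above Arrested. These are differences between genes of unlike length, so only their change between libraries can be read.

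**Figure D3:**
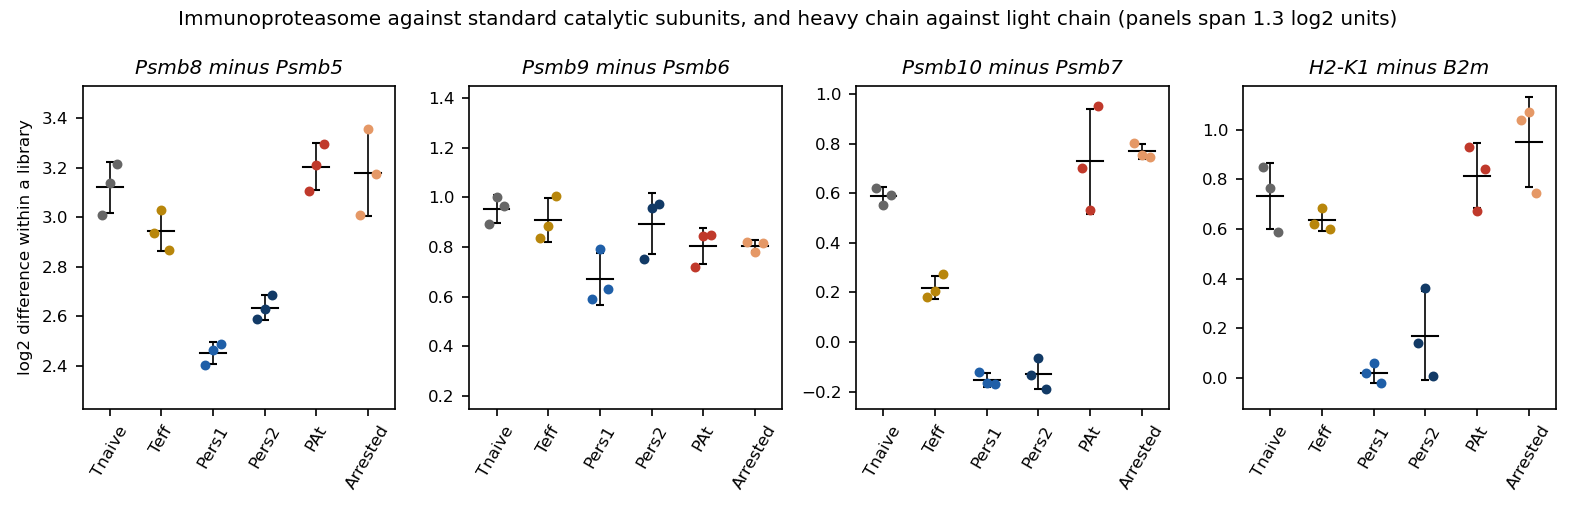
The log2 difference within a library (y axis, 1.3 log2 units in every panel) between each immunoproteasome subunit and the standard subunit it replaces, and between H2-K1 and B2m, in the 6 populations (x axis); points are the 3 libraries, the bar is the mean and the error bar the SD. Pers1 and Pers2 are lowest for Psmb8 minus Psmb5, Psmb10 minus Psmb7 and H2-K1 minus B2m. For Psmb9 minus Psmb6, Pers2 overlaps all others, and Pers1 lies below Tnaive and Teff and overlaps the rest.

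The other genes of the pathway were counted by list, against the same 35.9% higher and 35.1% lower of all tested genes. Of the proteasome activator and maturation genes, 3 of 4 were higher in the persistent populations, led by Pomp, the maturation protein of new proteasomes (log2 fold change 1.00, adjusted p = 5.07e-16). Its levels were 11.96 to 12.28 in the persistent and 11.07 to 11.23 in the PAt and Arrested libraries. Pomp was past both of the study's thresholds, an adjusted p under 0.05 and a change of more than 2-fold, but past the second only just. Of the loading chaperones and the trimming peptidase, 4 of 5 were higher: Calr by 0.71, Pdia3 by 0.67, Canx by 0.59 and the peptidase Erap1 by 0.17. These chaperones serve the folding of many glycoproteins besides class I. Of 26 other class I and class I-like genes listed, 17 were tested, and of these 14 were lower and 0 higher, while the other 3 (H2-T22, Hfe and Fcgrt) did not pass. Their median log2 fold change was -0.44. In these lists and those of promoter factors, interferon signalling and class II genes, no gene that passed here changed direction under quantile normalisation or median centring.

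Of these class I genes, those past both thresholds were H2-K2 (-1.22, adjusted p = 1.08e-12), H2-Q5 (-1.19, adjusted p = 7.19e-11) and H2-Q4 (-1.04, adjusted p = 2.86e-14). H2-Q4, a non-classical class I gene, was 13.89 to 14.50 in the persistent, 14.67 to 14.70 in the Teff, 14.89 to 15.02 in the Tnaive and 15.12 to 15.31 in the PAt and Arrested libraries, with no overlap between these groups, the order seen for Nlrc5 apart from Teff and Tnaive. In H2-Q5, 14% of the 100-base stretches occur in other genes, against 2.16% in H2-Q4 and 1.6% in H2-K2, so its value is uncertain. No member of the 10 passed both thresholds, here or in any other comparison. Of all tested genes, 7.51% did so here, 11.2% between Teff and Tnaive, 6.38% between Timer+ and Timer-negative cells, 8.31% between persistent and Teff cells, 6.88% between PAt and Arrested and Teff cells, 7.9% between PAt and Arrested and Tnaive cells, 0.19% between Pers2 and Pers1, and 0.121% between Arrested and PAt.

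Of 12 factors that bind class I promoters, 3 were higher (Nfyb, Atf1 and Irf2) and 5 lower (Irf1, Rela, Rfxank, Nfya and Rfx5) in the persistent populations, with fold changes from -0.27 for Irf1 to 0.38 for Nfyb, counts near the shares of all tested genes. Interferon receptor and signalling genes were mostly lower, 8 of 11, with 1 higher, the kinase Tyk2 (0.15), which did not pass after median centring. Past both thresholds were Ifngr2, a chain of the interferon gamma receptor (-1.20, adjusted p = 1.12e-13), and Socs1, a feedback inhibitor of cytokine signalling (-1.44, adjusted p = 4.06e-08). Ifngr2 was 9.52 to 9.90 in the persistent and 10.89 to 11.09 in the PAt and Arrested libraries. Of 7 class II presentation genes 5 were lower, 4 of them past both thresholds: H2-Aa (-1.31), H2-Ab1 (-1.24), H2-Eb1 (-1.21) and Ciita (-1.12). Class II genes are B cell and dendritic cell genes as well, and B cell markers were lower in the same comparison, where their part was not tested.

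**Figure D4:**
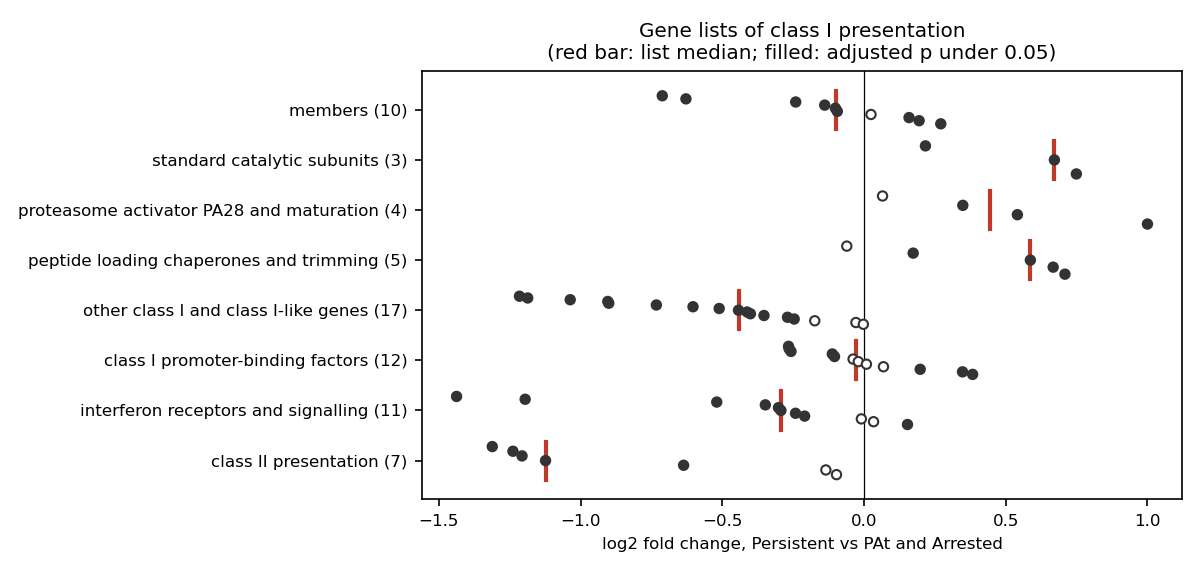
The log2 fold change between persistent and PAt and Arrested cells (x axis) of each tested gene in the members and 7 other lists (y axis, with the number of genes); filled points passed an adjusted p under 0.05 and the red bar is the median of the list. The standard subunits (median 0.67) and chaperones (0.59) lie to the right, and the other class I (-0.44), interferon (-0.29) and class II genes (-1.12) to the left, with the members spread from -0.71 to 0.27.

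Between Teff and Tnaive, the Timer-negative cells, the heavy and light chains were lower in Teff: H2-K1 by 0.31 (SE 0.060, adjusted p = 0.000127), H2-D1 by 0.21 (adjusted p = 0.02) and B2m by 0.21 (adjusted p = 0.0161) on the log2 scale, although under quantile normalisation B2m, one of the few highest genes, was 0.14 higher in Teff (adjusted p = 0.122) and H2-D1 no longer passed (-0.07, adjusted p = 0.403). Psmb10 was also lower (-0.19, adjusted p = 0.0248), and Tapbp was higher (0.32, SE 0.052, adjusted p = 2.24e-05). In all 5 genes the Teff and Tnaive libraries were apart. Hence 1 member was higher and 4 lower, against 31.3% and 27.7% of all tested genes, with a median of -0.06 over the members. Nlrc5 differed by -0.03 (SE 0.060, adjusted p = 0.698). The members' levels moved beside markers of other cells, which were higher in Teff for 6 of 6 B cell, 6 of 6 dendritic cell, 5 of 5 tested macrophage or monocyte, 2 of 2 CD8 T cell and 7 of 7 class II genes, while of the NK cell markers 3 were higher and 1, Eomes, lower. Among them, Clec9a, Ncr1 and Klre1 reached the filter of a mean of at least 3 only through Teff (means there 4.24, 4.14 and 3.52). That these were higher in Teff was therefore fixed by the filter. The part of all these markers was not tested. Of the genes that passed, 53.1% were higher in Teff, but 39.4% after quantile normalisation, which moved the median of all genes to -0.10, and 41.8% after median centring.

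Single libraries bore on 3 of these calls. H2-D1 did not pass without Teff replicate 1, Tnaive replicate 2 or Tnaive replicate 3 (-0.19 to -0.17, adjusted p 0.0714 to 0.087). B2m did not pass without Teff replicate 2 (-0.20, adjusted p = 0.0532) or Tnaive replicate 3 (-0.16, adjusted p = 0.0922), and Psmb10 did not pass without Tnaive replicate 1 (-0.16, adjusted p = 0.1) or Teff replicate 3 (-0.19, adjusted p = 0.0583). Without Tnaive replicate 3 the number of members lower in Teff was 2. Among the other lists, H2-Q2 (3.94, adjusted p = 3.69e-13) and Hfe (1.09, adjusted p = 2.67e-09) were the class I-like genes past both thresholds, both higher in Teff, H2-Q2 at 9.62 to 9.76 in Teff and 5.03 to 6.67 elsewhere. Of the interferon genes, the kinase Jak2 was higher (1.53, adjusted p = 5.52e-16), and Ifngr2 (-1.47, adjusted p = 1.5e-12) and Socs1 (-1.06, adjusted p = 0.00027) were lower. Socs1 was uneven in Teff, at 9.17, 8.02 and 9.22, against 9.83 to 9.90 in Tnaive. Its place past the 2-fold threshold thus hung on Teff replicate 2. The promoter factor Irf1 was lower by 0.59 (adjusted p = 3.3e-08), and the proteasome maturation gene Pomp was higher by 0.76 (adjusted p = 1.45e-11). Of the class II genes, H2-Aa (4.13), H2-Ab1 (4.04), H2-Eb1 (4.03), Cd74 (3.98), H2-DMb1 (3.12) and Ciita (3.09) were past both thresholds. In all, 2 of 3 standard subunits were higher in Teff, and of the activator and maturation genes 1 was higher and 1 lower. Of the chaperone and trimming genes 1 was higher and 2 lower, of the other class I genes 2 and 6 of 17, of the promoter factors 2 and 4 of 12, and of the interferon genes 3 and 4 of 11, where 1 gene that passed, Jak1, changed direction under quantile normalisation.

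Whether the shift within the Timer+ cells differed from that between Teff and Tnaive was tested as the difference of the 2 fold changes, persistent against PAt and Arrested less Teff against Tnaive. It was -0.68 for Nlrc5 (SE 0.073, adjusted p = 1.15e-07) and -0.32 for H2-K1 (SE 0.073, adjusted p = 0.00123), and thus lower for 2 members, against 25.5% of all tested genes. It was 0.37 for B2m (SE 0.090, adjusted p = 0.00165) and 0.18 for Psmb9 (SE 0.062, adjusted p = 0.0185), higher for 2 members against 23.2%, although the difference for B2m was -0.04 under quantile normalisation (adjusted p = 0.757). Psmb9 did not pass without Tnaive replicate 2 (0.16, adjusted p = 0.0581). Tap2 (-0.15, adjusted p = 0.0945) passed without Pers2 replicate 2 (-0.17, adjusted p = 0.0416) or Arrested replicate 3 (-0.18, adjusted p = 0.019). The difference was past both thresholds in 8.42% of tested genes and in none of the members.

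PAt and Arrested cells held more of most members than the Timer-negative cells did. Against Tnaive, 8 members were higher and none lower, against 26.9% and 23.8% of all tested genes. The fold changes were 0.35 for Nlrc5 (SE 0.052, adjusted p = 7.97e-06), 0.28 for Tapbp, 0.27 for H2-D1, 0.27 for Psmb8, 0.26 for H2-K1, 0.19 for Tap2, 0.17 for Tap1 and 0.15 for Psmb10. Nlrc5, Tapbp, H2-D1, Psmb8, H2-K1 and Tap2 had no overlap between the 6 PAt and Arrested and the 3 Tnaive libraries. B2m (0.11, adjusted p = 0.162) and Psmb9 (-0.06, adjusted p = 0.301) did not pass. With the replicate pool as a block, B2m passed (0.11, adjusted p = 0.0461), and after quantile normalisation it was higher by 0.46 (adjusted p = 1.11e-05). Median centring moved the call for 4 members, with 5 higher and Psmb9 lower (-0.13, adjusted p = 0.0117), and Psmb10 lost its call without 6 of 9 libraries, namely PAt replicate 1 or 3, Arrested replicate 1 or 2, or Tnaive replicate 2 or 3 (0.10 to 0.15, adjusted p 0.058 to 0.16). Psmb10 also did not pass with no filter on low values (adjusted p = 0.0548), no variance trend (0.0767), quantile normalisation (0.0957) or only these populations (0.0985). Of the genes that passed, 53.1% were higher, 38.7% after quantile normalisation and 37.7% after median centring. B cell markers were higher in PAt and Arrested (11.3 to 11.9) than in Tnaive (9.57 to 9.98), as were 6 of 7 class II genes, and their part was not tested.

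The comparisons of PAt and Arrested and of persistent cells with Teff share the Teff libraries. Against Teff, 8 members were higher in PAt and Arrested and none lower (background 24.8% higher and 27.9% lower), with H2-K1 at 0.57 (SE 0.052, adjusted p = 6.52e-09), H2-D1 at 0.48, Nlrc5 at 0.38, Psmb10 at 0.34, B2m at 0.32, Tap1 at 0.26, Psmb8 at 0.17 and Tap2 at 0.14. Tapbp (-0.03) and Psmb9 (-0.07) did not pass, and Tap2 did not pass without Teff replicate 2, Teff replicate 3 or Arrested replicate 2 (0.12 to 0.13, adjusted p 0.0521 to 0.0734). In the persistent populations against Teff, 7 members were higher and 1 lower (background 29.8% and 28.9%). The largest rise was that of B2m (0.48, SE 0.063, adjusted p = 1.31e-06), followed by H2-D1 and Tapbp (0.24 each), Psmb10 and Psmb8 (0.20 each), Tap1 (0.16) and Psmb9 (0.13). Nlrc5 was the 1 member that was lower (-0.33, SE 0.052, adjusted p = 1.09e-05), with all 6 persistent libraries below all 3 Teff libraries. H2-K1 (-0.06, adjusted p = 0.357) and Tap2 (0.05, adjusted p = 0.439) did not pass. Under median centring 4 members were higher, and Psmb9 did not pass without Teff replicate 1 or 2 (0.11 and 0.12, adjusted p 0.0719 and 0.0594). Markers of other cells were lower than in Teff in both comparisons, with medians for persistent and for PAt and Arrested cells of -3.00 and -2.99 over dendritic cell, -2.21 and -2.22 over macrophage or monocyte, -2.78 and -1.84 over class II, -1.65 and -0.53 over B cell, -2.01 and -1.20 over CD8 T cell and -1.49 and -1.17 over NK cell genes. The dendritic and NK cell medians include Clec9a, Ncr1 and Klre1, which reached the filter on mean level only through Teff. The part of all these markers was not tested.

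With all Timer+ cells set against Tnaive and Teff together, 8 members were higher and none lower, against 31.6% and 30.1% of tested genes. The median of the members was 0.17, with B2m (0.30, adjusted p = 7.8e-06), Tapbp (0.26), H2-D1 (0.25) and Psmb8 (0.23, adjusted p = 6.4e-07) leading, and Psmb8 the only member whose 12 Timer+ libraries all lay above the 6 others. Psmb10 (0.17), Tap1 (0.17), Tap2 (0.12) and H2-K1 (0.10, adjusted p = 0.0227) were also higher. The mean hides the split within Timer+ cells: Nlrc5 had a fold change of 0.01 (adjusted p = 0.875), and its PAt and Arrested libraries lay above and its persistent libraries below every Timer-negative library. Of the markers, 4 of 6 dendritic cell, 3 of 5 macrophage or monocyte, 2 of 2 CD8 T cell and 4 of 4 NK cell genes were lower in Timer+ cells than in Tnaive and Teff together. Among 6 B cell markers 1 was higher and 1 lower. Summed dendritic cell markers were 6.89 to 6.99 in Tnaive and 6.80 to 7.34 in Timer+ cells, and thus overlapped. Macrophage or monocyte markers overlapped too (8.82 to 9.19 and 8.27 to 9.44). The means of Klrb1c, Ncr1 and Klre1 were lowest in Tnaive, while Eomes was lower in every Timer+ population (5.96 to 6.99) than there (9.13). The tested markers include Clec9a, Ncr1 and Klre1, which reached the filter on mean level only through Teff. Without any Teff library, chosen after the markers in Teff had been seen, 6 members were higher than in Tnaive, and H2-K1 was at -0.06 (adjusted p = 0.338) and Psmb10 at 0.08 (adjusted p = 0.244). H2-K1 did not pass without Tnaive replicate 3 (0.09, adjusted p = 0.0655) or after median centring (0.03, adjusted p = 0.479). Of the genes that passed, 51.2% were higher, and 37.6% after median centring. Of the class I-like genes, H2-Q2 (-1.94) and Fcgrt, the neonatal Fc receptor (-1.18, adjusted p = 9.07e-12), were lower past both thresholds, and of all 17 tested 3 were higher and 7 lower. The mean of H2-Q2 was 5.73 in Tnaive, 5.16 to 6.38 in the Timer+ populations and 9.67 in Teff. That of Fcgrt was 7.13, 5.75 to 6.25 and 7.40. All 3 standard subunits, all 4 activator and maturation genes and 4 of 5 chaperone and trimming genes were higher in Timer+ cells, and 6 of 7 class II genes were lower, with H2-Eb1 (-1.06) and H2-Aa (-1.01) past both thresholds. Yet the mean of H2-Eb1 was 8.70 in Tnaive, 8.74 to 10.41 in the Timer+ populations and 12.73 in Teff. That of H2-Aa was 9.01, 9.15 to 10.85 and 13.14. Only H2-DMa was lower in every Timer+ population (9.87 to 10.14) than in Tnaive (10.79). Of the promoter factors 6 were higher and 1 lower, and of the interferon genes 7 were higher and 3 lower, 4 and 3 after median centring.

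Within each pair of Timer+ populations few members differed. H2-K1 was higher in Pers2 than in Pers1 (0.36, SE 0.060, adjusted p = 0.000518), the only member of 10 to pass, against 6.02% of tested genes higher and 4.56% lower. B2m was higher in all 3 Pers2 than in all 3 Pers1 libraries (0.21, adjusted p = 0.0774), and with the replicate pool as a block it passed (adjusted p = 0.0104). Psmb10 was lower by 0.18 (adjusted p = 0.119), and passed when only these 2 populations were fitted (adjusted p = 0.0498). Of the genes that passed, 56.9% were higher in Pers2, and 45.8% after median centring. Between Arrested and PAt, 0 of 10 members passed in limma's test, and 1, Tap1, had an unadjusted p under 0.05 (0.13, adjusted p = 0.208), against 2.07% of tested genes higher and 2.97% lower. No member passed in any of the 7 alternative fits without a library left out. Of the genes that passed, 41.1% were higher in Arrested, and 53.5% after median centring.

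Among 13159 tested genes outside the members with an intact symbol, the 8 whose values followed the members' mean profile most closely over the 18 libraries were Cd27 (Pearson's r = 0.955), Polm (0.941), Col1a2 (0.934), Ltb (0.93), Pagr1a (0.92), Islr (0.914), Gm4956 (0.906) and Gucy1a3 (0.905). The 8 closest to Nlrc5 were H2-Ob (0.98), Tom1l2, Rhob and Prdm2 (0.968 each), Crtc2 (0.966), Ubp1 and Gabbr1 (0.963 each) and Top3b (0.961). Among the members themselves, Nlrc5 was closest to H2-K1 (r = 0.888), while its r with Psmb9 was -0.736 and with Tapbp -0.555. These r describe 18 libraries that share 6 population means and the same scaling.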

How the data were processed

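RNA from 18 sorted T-cell samples was sequenced by the authors as stranded, paired-end mRNA libraries. Per the labels' processing notes, CASAVA 1.8.2, FastQC 0.11.2, TopHat2 2.0.9, DESeq2 and mm10 were used. The annotation and the counting step are not given in the sources used here. The authors deposited log2 normalised counts, with the transform not named in the sources used here. Their form is that of a regularised log, in which differences of low genes are shrunken, and depth is unknown. Values were used as deposited. The 13190 genes with a mean of at least 3 were tested with limma 3.58.1 in R 4.3.3 (1 model of 6 populations, 12 residual degrees of freedom, variance trend, Benjamini-Hochberg adjustment over all tested genes), from which all adjusted p-values come. The fit was tested on simulated data, with 200 genes changed between persistent and PAt and Arrested cells. It recovered 61% of changes of 0.3 on the log2 scale, 94% of those of 0.5 and 100% of those of 1. The simulated libraries were independent and shared no pools. The 200 genes were drawn at random from all tested genes, whereas in the data 35.9% passed as higher and 35.1% as lower. With so few changed genes the adjustment was stricter, so these shares do not give the recovery of the members. Many member differences were below 0.3, and a member that did not pass may still differ.

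The members and gene lists were chosen with earlier results of these data known. Named are all members in every comparison, the genes of the other lists past both thresholds between persistent and PAt and Arrested, Teff and Tnaive, or Timer+ and Timer-negative cells, and the 8 genes most like the members and Nlrc5. Further genes named as examples were chosen after their values were seen. The deposited design has the populations sorted from each mouse, so replicate numbers were taken as shared pools. Deviations from the population means correlated at a median of 0.166 in 45 pairs with the same replicate number and of -0.0642 in 90 pairs with different numbers. The deviations sum to 0 within each population, so the second value largely follows from the first. A shared pool and a batch shared by replicate number cannot be told apart here. Alternatives changed the filter on low values, the samples in the fit, the variance trend, the scaling, the replicate block and each library in turn. Motifs and coordinates came from RefSeq (GRCm38.p6) and GENCODE vM21, and Python 3.11.15 and matplotlib 3.10.9 drew the figures.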

Additional observations from a re-analysis of the deposited data

Results flagged for a closer look

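For 4 members the shift between persistent and PAt and Arrested cells differed from the shift between Teff and Tnaive cells by the test of the difference itself (limma, adjusted over all tested genes). The difference was -0.683 on the log2 scale for Nlrc5 and -0.315 for H2-K1, which were lower in the persistent cells beyond what separated Teff from Tnaive. It was 0.373 for B2m and 0.182 for Psmb9. Summed dendritic cell, macrophage or monocyte, CD8 T cell and class II markers were highest in Teff. B cell and CD8 T cell markers were lower in persistent than in PAt and Arrested cells. The NK cell sum was highest in Tnaive through Eomes (mean 9.13 there and 7.88 in Teff), while Klrb1c, Ncr1 and Klre1 were highest in Teff. The part of all these markers in the differences was not tested.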

How the results depend on the processing

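Over 620 member values from the alternatives that kept every library or left out Teff, 574 kept their direction and side of the threshold, 20 lost and 9 gained a call, and 17 changed sign, 3 of these among values that had passed: B2m between Teff and Tnaive (0.14, quantile normalisation), B2m in the difference of shifts (-0.0385, quantile normalisation) and H2-K1 between Timer+ and Timer-negative cells (-0.0568, no Teff libraries). Of 930 values with 1 library left out, 867 were as before, 35 lost and 2 gained a call, and 26 changed sign, 0 of which had passed.

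The median over the members was -0.16 between persistent and PAt and Arrested cells after median centring. Between Teff and Tnaive it was 0.0362 after quantile normalisation and -0.14 after median centring, between Timer+ and Timer-negative cells 0.10 and between persistent and Teff cells 0.12 after median centring, between PAt and Arrested and Tnaive cells 0.28 after quantile normalisation and 0.15 after median centring, and -0.13 for the difference of shifts after quantile normalisation. Members higher in Teff than in Tnaive were 2 after quantile normalisation or with only these populations, and 2 were lower after quantile normalisation. Median centring left 4 higher between persistent and Teff cells, and 5 higher and 1 lower between PAt and Arrested and Tnaive cells. With the replicate block 2 were higher in Pers2 than in Pers1, and with only these populations 1 was lower. In the difference of shifts 1 was higher after quantile normalisation. Besides B2m in Pers2 against Pers1 and in PAt and Arrested against Tnaive, the block changed no call of a member.

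With 1 library left out, members lower between persistent and PAt and Arrested cells numbered 3 to 6, members lower in Teff 2 to 3, and members higher in the difference of shifts 1 to 2, and the median between Arrested and PAt was -0.00554 to 0.0937.

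Values that had not passed and changed sign were Psmb8 between persistent and PAt and Arrested cells (-0.0135 quantile, -0.0406 median centring), Nlrc5 between Teff and Tnaive (0.0956 quantile) with Tap2 (-0.0316) and Psmb9 (-0.0708, both median centring), Nlrc5 (-0.0623) and Psmb9 (-0.0342) between Timer+ and Timer-negative cells after median centring, Nlrc5 there without Teff (-0.00725), Tap2 between persistent and Teff cells (-0.0137, median centring), Psmb8 in Pers2 against Pers1 (0.0241, quantile), H2-K1 (-0.0679), H2-D1 (-0.029) and Psmb8 (-0.011) in Arrested against PAt (quantile), and Tap1 in the difference of shifts (0.00598, median centring). With 1 library left out the ranges that crossed 0 were those of Nlrc5 (-0.0736 to 0.0244) and Psmb9 (-0.0104 to 0.0319) between Teff and Tnaive, Nlrc5 between Timer+ and Timer-negative cells (-0.0194 to 0.0295), Psmb8 in Pers2 against Pers1 (-0.0309 to 0.0196), H2-D1 (-0.0485 to 0.0909), Tapbp (-0.00547 to 0.0926), Psmb8 (-0.0272 to 0.0600) and Psmb10 (-0.00562 to 0.177) in Arrested against PAt, and H2-D1 (-0.0662 to 0.0384) and Tap1 (-0.0413 to 0.0184) in the difference of shifts.

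The cause of these changes was not tested. The data are 3 pools per population, without read counts, and protein at the cell surface was not analysed here. The fit without Teff was chosen after the data had been seen.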

Other observations

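Libraries of one population also varied together in these genes. Taking each gene's deviation from its population mean over the 18 libraries, all 36 pairs of members without B2m had a Pearson's r above 0, with a median of 0.642 and a range from 0.099 (Nlrc5 and Psmb10) to 0.909 (Tap1 and Psmb8). Of the 9 pairs with B2m, 7 were below 0, with a median of -0.275, the lowest being that with Tap2 (-0.737). These r describe libraries that share pools and scaling, and no test was made.

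B2m lay above its population mean in replicate 3 in all 6 populations, by 0.088 on average on the log2 scale. H2-D1 and Nlrc5 lay below theirs in replicate 1 in all 6, with mean deviations of -0.082 and -0.066. A difference between pools of this size is close to the smaller differences between populations, such as those of Tap1 and Tap2.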
